A study of Arabidopsis thaliana with 4 samples.

Results

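The chloroplast NADH dehydrogenase-like (NDH) complex genes ndhA, ndhC, ndhD, ndhE, ndhF, ndhG, ndhH, ndhI, ndhJ and ndhK of Arabidopsis thaliana were followed across 2 light qualities and 2 growth temperatures. These 10 genes were taken by name from the chloroplast genome, each with 1 probe set that the platform annotation gives to that gene alone, out of 13356 genes with such a probe set on the array. The chloroplast gene ndhB was not analysed here, because its probe set is assigned to both copies of the gene. All seedlings were of the accession La-er and were mutant for phytochrome A, the photoreceptor that senses far-red light and is encoded by PHYA. The labels name the allele as phyA-2 on 3 arrays and as phyA, with the same reference, for low R:FR at 16 °C, so no group holds a functional phytochrome A as a comparison. The high R:FR groups grew on soil for 5 days at 16 °C or at 22 °C. Their white light had a photon flux of 100 µmol m-2 s-1, and its red to far-red ratio (R:FR) was 4.4. The low R:FR groups grew for 4 days in that light at 16 °C or at 22 °C and then received an R:FR of 0.1, the light of vegetation shade, for 24 h. RNA came from cotyledons with some hypocotyl, and 1 array stands for each of the 4 conditions.

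The NDH complex lies in the thylakoid membrane next to photosystem I. It passes electrons from ferredoxin to plastoquinone and pumps protons, and so takes part in cyclic electron flow and chlororespiration. Its membrane arm includes the products of ndhA, ndhC, ndhD, ndhE, ndhF and ndhG, its stromal arm those of ndhH, ndhI, ndhJ and ndhK, and further subunits are encoded in the nucleus. In the chloroplast genome most of these genes are cotranscribed, as ndhC, ndhK and ndhJ in one unit and as ndhH, ndhA, ndhI, ndhG, ndhE, psaC and ndhD in another, whereas ndhF stands apart from both. Chloroplast transcripts carry poly(A) tails mainly as a mark for degradation, and the standard labelling of these arrays starts from poly(A), so a signal here need not follow the whole pool of a chloroplast transcript.

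The deposited signals had medians of 36.1 (high R:FR) and 36 (low R:FR) at 16 °C and of 39.2 and 40.6 at 22 °C. Of 22746 probe sets other than controls, 13648 passed the filter on dim signals and are called measured. They include 9 of the 10 ndh probe sets and 59 of 59 probe sets of other single chloroplast-encoded genes. Signals below 14.5 were set to that floor before ratios were taken, and control probe sets without a matching transcript reached 17.9 at most. No condition was repeated. Ratios between single arrays therefore come without a replicate error or a test, and the number of arrays limits their precision. As a scale, each log2 ratio stands beside a local SD, the scaled median absolute deviation of the same ratio over the 500 measured probe sets nearest in mean signal. Transcripts added at the hybridization step (18 probe sets) had an SD of 0.21 for the light ratio at 16 °C and 0.23 at 22 °C. Of 8 markers of green cotyledons 4 were measured, all brightly, with RCA (rubisco activase) between 3872 and 4327, PORB (a chlorophyll synthesis enzyme) between 1305 and 1463 and LHCB4.1 (a photosystem II antenna protein) between 3774 and 4110. Its relative LHCB4.2 varied more, at 1133 in high and 814 in low R:FR at 16 °C and at 1506 and 1164 at 22 °C, lower in low R:FR at both temperatures, and the part of this in the ndh ratios was not tested. The shoot apex marker CLV3 lay between 0.90 and 6.0, below the floor, and the 3 seed markers and PHYA had no named probe set.

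The membrane arm genes differed widely in how much their signal varied. For ndhE, a small subunit of the proton-conducting membrane arm, the signal at 16 °C was 17.4 in high and 229 in low R:FR, and at 22 °C it was 58.7 in high and 119 in low R:FR. For ndhG, another small membrane subunit, it was 24.2 and 298 at 16 °C and 46.7 and 113 at 22 °C. Both genes were lowest in high R:FR at 16 °C and highest in low R:FR at 16 °C, with ndhE on the former array below the highest absent control. For ndhD, which encodes an antiporter-like proton-pumping subunit, it was 79.5 and 307 at 16 °C and 264 and 409 at 22 °C, so that high R:FR at 16 °C stood below the other arrays. For ndhA, whose product forms part of the quinone-binding region, it was 412 and 478 at 16 °C and 570 and 885 at 22 °C. For ndhC, a membrane subunit at the junction with the stromal arm, it was 1471 and 1801 at 16 °C and 1329 and 1388 at 22 °C, a span of 1.36-fold over the 4 arrays. Another antiporter-like gene, ndhF, was dim throughout, at 14.2 and 39.7 at 16 °C and 13.4 and 19.4 at 22 °C. It did not pass the filter, and both its high R:FR signals lay below the floor.

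The stromal arm genes varied as unevenly. For ndhI, which encodes an iron-sulfur subunit, the signal was 2339 in high and 2239 in low R:FR at 16 °C and 2560 and 2877 at 22 °C, a span of 1.29-fold. For ndhH, part of the core near the quinone site, it was 34.4 and 62.2 at 16 °C and 45.7 and 99.4 at 22 °C. For ndhJ, a subunit of the same arm, it was 50.6 and 284 at 16 °C and 93.8 and 126 at 22 °C, with low R:FR at 16 °C above the other 3 arrays. For ndhK, which carries the iron-sulfur cluster nearest to the quinone, it was 118 and 227 at 16 °C and 245 and 641 at 22 °C, with low R:FR at 22 °C above the other 3. High R:FR at 16 °C gave the lowest signal for 7 of the 9 measured ndh genes, ndhC and ndhI being the others. The highest signal came from low R:FR at 16 °C for 4 genes (ndhC, ndhE, ndhG and ndhJ) and from low R:FR at 22 °C for 5 (ndhA, ndhD, ndhH, ndhI and ndhK). The array of high R:FR at 16 °C was also the lowest for 46 of the 59 other chloroplast-encoded probe sets, and low R:FR at 22 °C the highest for 35 of them. In bulk tissue a smaller share of chloroplast-rich cells and less chloroplast RNA per cell cannot be told apart.

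**Figure D1:**
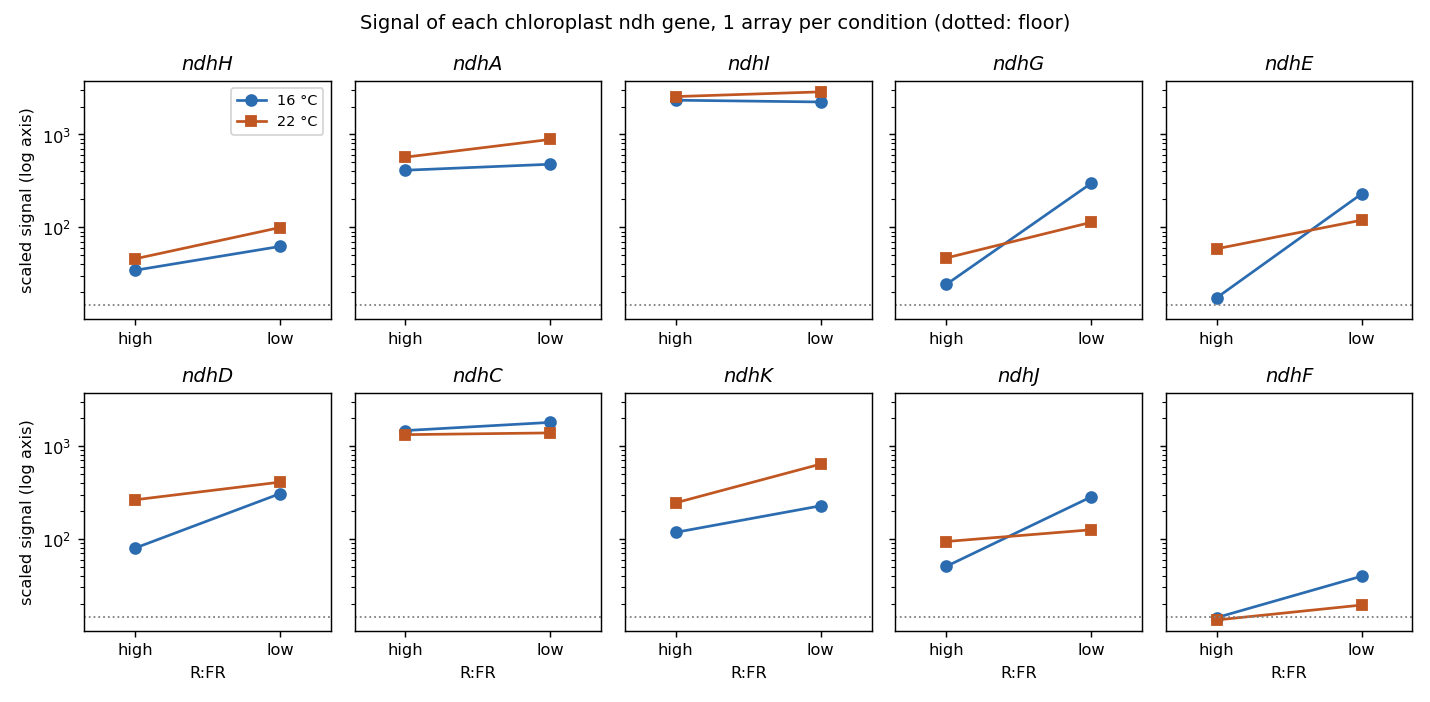
Scaled signal of the 10 ndh genes (log axis) in high and low R:FR at 16 °C (circles) and 22 °C (squares), each point 1 array, with the floor of 14.5 dotted. The lines of ndhE, ndhG and ndhJ cross between the light conditions, whereas ndhC and ndhI span 1.36-fold and 1.29-fold over the 4 arrays.

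The first comparison asked how 24 h of low R:FR was associated with ndh signals at 16 °C. The ratios of low to high R:FR were largest for ndhE, at 13.2-fold (log2 3.72, local SD 0.34), and ndhG, at 12.3-fold (log2 3.62, local SD 0.31), in an order that depends on the treatment of dim signals. It was 5.61-fold for ndhJ (log2 2.49, local SD 0.35) and 3.86-fold for ndhD (log2 1.95, local SD 0.28). Next came ndhK at 1.93-fold and ndhH at 1.81-fold, then ndhC at 1.22-fold and ndhA at 1.16-fold, with ndhI at log2 -0.06 (local SD 0.14). Thus 4 of 9 measured ndh genes were at least 2-fold higher and 0 lower, where the shares over all measured probe sets were 1.84% higher and 2.9% lower. The median log2 ratio of the 9 genes was 0.95, and that of all measured probe sets 0.01. For ndhF, outside the filter, the low R:FR signal was 2.74-fold above the floor at 16 °C (log2 1.45, local SD 0.57). At 22 °C it was 1.34-fold above the floor (log2 0.42, local SD 0.49), smaller than the local SD. These are lower bounds only if single dim signals hold, and 19.4 at 22 °C was near the highest absent control of 17.9. With the floor raised to the 50th percentile the bound at 16 °C was 1.05-fold, and at 22 °C there was none, since both signals lay below that floor. The ratios of ndhE and ndhG rest on high R:FR signals near background. With that higher floor they were log2 2.60 for ndhE and 2.98 for ndhG, and with a pseudocount 2.94 and 3.01, so that ndhG was then the higher one.

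At 22 °C the same comparison, which shares no array with the first, gave ratios in a narrower range and another order of genes. The largest was that of ndhK, at 2.61-fold (log2 1.39, local SD 0.21), followed by ndhG at 2.42-fold (log2 1.28, local SD 0.27), ndhH at 2.18-fold (log2 1.12, local SD 0.29) and ndhE at 2.03-fold (log2 1.02, local SD 0.27). Within 2-fold were ndhA and ndhD, both at 1.55-fold, ndhJ at 1.34-fold, ndhI at 1.12-fold and ndhC at 1.04-fold. All 9 measured genes were above 0, with a median log2 of 0.64, against 0.01 for all measured probe sets. Again 4 of 9 were at least 2-fold higher and 0 lower, where 1.01% of all measured probe sets were higher and 0.498% lower. With a pseudocount instead of the floor, 2 of 9 passed 2-fold, as ndhH (log2 0.92) and ndhE (log2 0.87) did not. With arrays scaled to the same median ndhE was at log2 0.97.

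The light effect over both temperatures was tested with limma in an additive fit of light and temperature to all 4 arrays. The residual of this fit is the interaction of light and temperature, with 1 residual degree of freedom per probe set. limma combined it with the variance of probe sets of like signal, which held 5.18 of the 6.18 degrees of freedom. The error behind each p is thus largely that of other probe sets. None of the 9 measured ndh genes passed an adjusted p of 0.05 in limma, and all 9 estimates were above 0. At an unadjusted p under 0.05 limma had 7 of the 9 ndh genes, 28 of the 59 other chloroplast-encoded genes and 6.59% of all measured probe sets. The smallest adjusted p in limma was that of ndhK, 0.216, for a log2 effect of 1.17 that was higher in low R:FR at both temperatures. For ndhG the limma effect was log2 2.45 with an adjusted p of 0.412, and for ndhE log2 2.37 with an adjusted p of 0.509. Over all measured probe sets limma called 0.0513%, 7 in number, so few of any kind passed.

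The dependence of the light ratio on temperature, the log2 ratio at 16 °C minus that at 22 °C, divided the genes. It was 2.70 for ndhE (local SD 0.41), 2.34 for ndhG (local SD 0.40), 2.07 for ndhJ (local SD 0.42) and 1.32 for ndhD (local SD 0.34). For the other 5 measured genes it lay between -0.44 (ndhK) and 0.23 (ndhC), with ndhA at -0.42, ndhH at -0.27 and ndhI at -0.23. So 4 of 9 had a difference of at least 1 and 0 of at most -1, where this held for 2.31% and 4.16% of all measured probe sets. Of the 59 other chloroplast-encoded genes, 12 (20.3%) had a difference of at least 1 and 3 of at most -1. These 12 were all among the 27 genes dimmer than the median chloroplast probe set, where 4 of 7 ndh genes had such a difference. A difference of this size was thus not particular to ndh genes. With the floor at the 50th percentile the difference was 1.58 for ndhE and 1.70 for ndhG.

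Position along the chloroplast genome was not used to choose the ndh genes, whereas psaC and the neighbours of the units were named for their position. In the unit from ndhH to ndhD, the log2 light ratios at 16 °C followed the gene order as 0.85 for ndhH, 0.21 for ndhA and -0.06 for ndhI, and then 3.62 for ndhG, 3.72 for ndhE, 2.54 for psaC and 1.95 for ndhD. The step lay between the neighbours ndhI and ndhG. The gene psaC, which encodes an iron-sulfur subunit of photosystem I, had signals of 26.1 and 151 at 16 °C and 45.9 and 116 at 22 °C. Outside the unit, rps15 (a ribosomal protein gene) on the ndhH side was at 0.46, and on the ndhD side ccsA (needed to attach haem to cytochromes) was at 0.93 and rpl32 (a ribosomal protein gene) at 0.23. At 22 °C the ratios in the same order were 1.12, 0.64, 0.17, 1.28, 1.02, 1.34 and 0.63, with ndhI again the lowest of the 7.

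In the shorter unit the log2 light ratio at 16 °C was 0.29 for ndhC, 0.95 for ndhK and 2.49 for ndhJ, between atpE (an ATP synthase gene) at 0.11 and rps4 (a ribosomal protein gene) at 0.03. At 22 °C the middle gene ndhK was the highest, at 1.39, with ndhC at 0.06 and ndhJ at 0.42. In both units, then, genes that are cotranscribed had unlike ratios. Each gene stands on 1 probe set, and how the probe sets differ in binding or in place along a transcript was not tested.

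**Figure D2:**
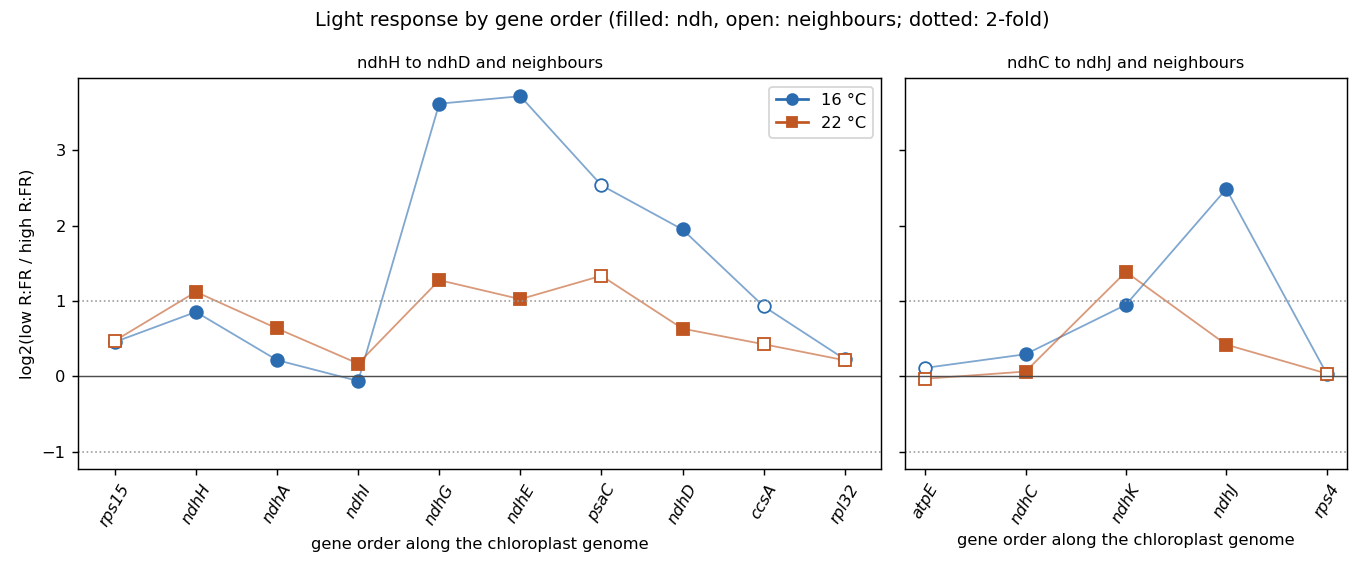
Log2 ratio of low to high R:FR (y axis) at 16 °C (circles) and 22 °C (squares) for genes in their order along the chloroplast genome. Each panel shows an ndh unit and its neighbours outside it (rps15, ccsA and rpl32, or atpE and rps4), with ndh genes filled, other genes open and 2-fold dotted. At 16 °C the ratio steps from -0.06 at ndhI to 3.62 at ndhG, and in the shorter unit it goes from 0.29 at ndhC to 2.49 at ndhJ.

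The ndh genes were set beside the 59 other chloroplast-encoded genes, of which 15 (25.4%) were at least 2-fold higher at 16 °C and 14 (23.7%) at 22 °C, with 0 lower at either temperature. The medians of these genes were log2 0.36 at 16 °C and 0.41 at 22 °C, so the ndh median stood 0.59 and 0.23 above them. Over all measured probe sets the shares were 1.84% higher and 2.9% lower at 16 °C, and 1.01% and 0.498% at 22 °C. With the median of the other chloroplast-encoded genes subtracted, 4 of 9 ndh genes passed 2-fold at 16 °C and 0 of 9 at 22 °C. No share over all measured probe sets was taken with this subtraction, so these 2 counts stand without a background.

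The light ratio went with the signal of the probe set. Of the 7 measured ndh genes below the median signal of the chloroplast probe sets (565, mean over 4 arrays), 4 were at least 2-fold higher at 16 °C and 4 at 22 °C, and of the 2 above it (ndhC and ndhI) 0 were. Among other chloroplast-encoded genes the counts were 15 of 27 below that signal and 0 of 32 above it at 16 °C, and 13 of 27 and 1 of 32 at 22 °C. In the dimmer class the median log2 ratio at 16 °C was 1.95 for the ndh genes and 1.70 for the others, and at 22 °C 1.02 and 0.95. Across the 59 other genes, which share the 4 arrays and are not independent replicates, Spearman's rho of ratio and mean signal was -0.63 at 16 °C and -0.64 at 22 °C, and across the 9 ndh genes -0.73 and -0.58. Over all 13648 measured probe sets it was -0.03 and -0.12. The split by signal was chosen after the values were seen, and a signal also depends on the probes, so it does not rank the transcripts.

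**Figure D3:**
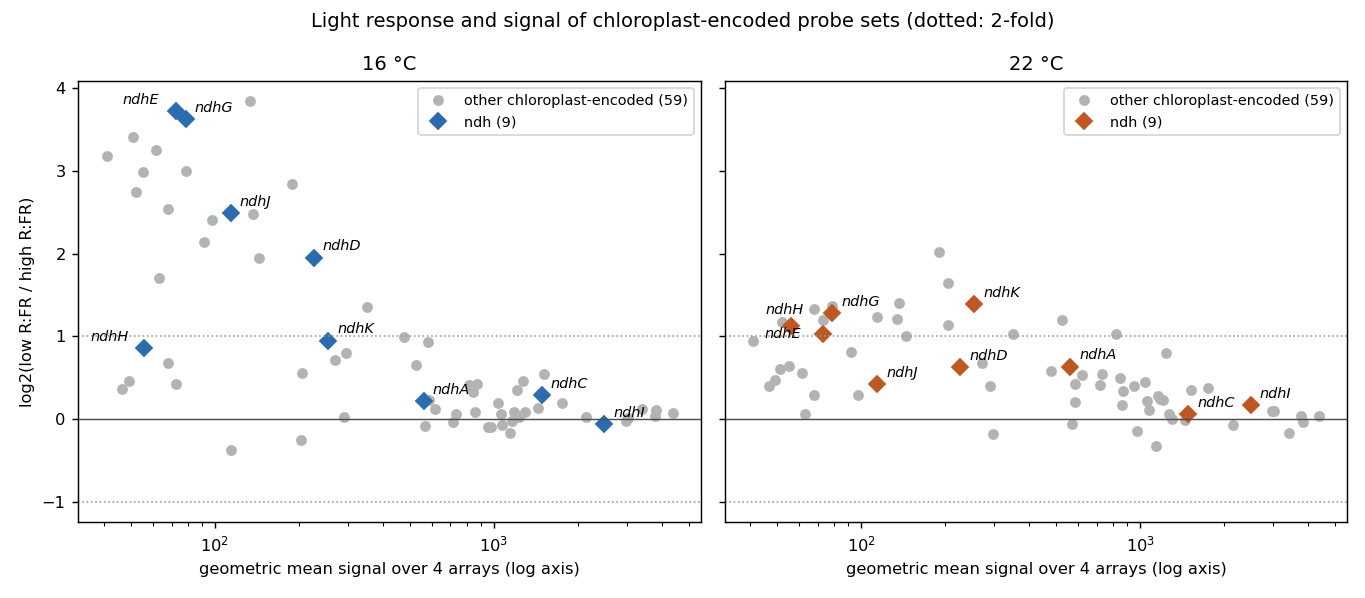
Log2 ratio of low to high R:FR (y axis) against the geometric mean signal over the 4 arrays (log x axis) for chloroplast-encoded probe sets, at 16 °C on the left and 22 °C on the right, with the 9 measured ndh genes as diamonds and the 59 others in grey. At both temperatures ndhC and ndhI lie near 0 among bright probe sets, and the dim ndh genes lie within the range of other dim ones.

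Control transcripts with a 3' and a 5' probe set (6 pairs) report on RNA integrity and labelling. Their mean log2 ratio of 3' to 5' signal was 0.82 in high and 0.54 in low R:FR at 16 °C, and 0.73 and 0.64 at 22 °C. Its order over the arrays was the reverse of that for the median signal of the 9 ndh genes at 16 °C, which was 79.5 in high and 298 in low R:FR, and at 22 °C, with 245 and 409. The part of RNA quality in the ndh ratios was not tested. PYK10, a beta-glucosidase gene of roots and hypocotyls, had signals of 2024 and 1083 at 16 °C and 2913 and 2835 at 22 °C, and any part of the tissue mix in the ndh ratios was not tested either.

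Growth temperature was compared within each light condition, in comparisons that share their arrays with the light ratios above. All seedlings had the same age at harvest, so growth stage and temperature cannot be told apart. In high R:FR, 3 of 9 measured ndh genes were at least 2-fold lower at 16 than at 22 °C and 0 higher, where 3.17% of all measured probe sets were lower and 1.11% higher. They were ndhE (log2 -1.75, local SD 0.36), ndhD (log2 -1.73, local SD 0.34) and ndhK (log2 -1.06, local SD 0.34). Then came ndhG at -0.95, ndhJ at -0.89, ndhA at -0.47, ndhH at -0.41 and ndhI at -0.13, with ndhC at 0.15. With the floor at the 50th percentile ndhE was at -0.63 and ndhG at -0.31, and with arrays scaled to the same median ndhK was at -0.94. Of the other chloroplast-encoded genes 13 of 59 were at least 2-fold lower at 16 °C and 0 higher.

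In low R:FR the genes went both ways. At least 2-fold higher at 16 °C were ndhG (log2 1.40, local SD 0.42) and ndhJ (log2 1.18, local SD 0.42), where 1.62% of all measured probe sets were, and ndhE was at 0.94. At least 2-fold lower was ndhK (log2 -1.49, local SD 0.43), where 6.61% of all measured probe sets were, followed by ndhA at -0.89, ndhH at -0.68, ndhD at -0.41 and ndhI at -0.36. With arrays scaled to the same median ndhE was at 1.12. Among other chloroplast-encoded genes 6 of 59 were at least 2-fold higher and 7 lower.

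In the additive limma fit of temperature over both lights, ndhK was the 1 ndh gene of 9 with an adjusted p under 0.05. Its limma effect was log2 -1.28 with an adjusted p of 0.0446, lower at 16 °C in both lights, and the adjusted p ran from 0.0347 to 0.471 over the alternative settings. limma called 1.4% of all measured probe sets for temperature, and 3 of the 59 other chloroplast-encoded ones. For ndhA the limma adjusted p was 0.0838 (log2 -0.68) and for ndhD 0.113 (log2 -1.07), both lower at 16 °C in both lights.

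The nuclear genes of the complex, of its assembly and of the editing of its transcripts formed a list of 33, of which 9 had a named probe set and all 9 of these were measured. None passed 2-fold for light at either temperature, with log2 ratios between -0.43 and 0.41 at 16 °C and medians of 0.02 at 16 °C and 0.09 at 22 °C. Of all measured probe sets 1.84% were higher and 2.9% lower at 16 °C, and 1.01% and 0.498% at 22 °C. A count of 0 of 9 is near those shares. In limma 0 of 9 passed an adjusted p of 0.05 for light, and 0 had an unadjusted p under 0.05. The limma shares over all measured probe sets were 0.0513% and 6.59%. NdhV (AT2G04039) and NdhN were nearest the median at 16 °C, NdhS and NdhN at 22 °C. NdhN, a stromal subunit, had signals of 654 and 673 at 16 °C and 465 and 495 at 22 °C, so that both arrays of 16 °C stood above both of 22 °C.

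Temperature set these nuclear genes apart from the chloroplast-encoded ones in high R:FR, by a median log2 of 0.49 against -0.89. The further genes named here were chosen after their values were seen. CRR42, an assembly factor gene, had signals of 247 and 260 at 16 °C and 132 and 129 at 22 °C. In low R:FR it was the 1 of 9 to pass 2-fold, at log2 1.01, just above that threshold. Over all measured probe sets the shares in low R:FR were 1.62% higher and 6.61% lower at 16 °C. In high R:FR 0 of 9 nuclear genes passed 2-fold, and the shares were 1.11% higher and 3.17% lower. In high R:FR NdhL (a membrane-bound subunit) was at 0.55, NdhV (on the side where ferredoxin binds) at 0.59, and CRR21 (an editing factor for the ndhD transcript) at 0.74. CRR22, another editing factor, was at -0.43. In limma 0 of 9 nuclear genes passed an adjusted p of 0.05 for temperature, where 1.4% of all measured probe sets did. CRR42 came nearest with a limma adjusted p of 0.0507 for a log2 effect of 0.96. At an unadjusted p under 0.05 for temperature limma had 5 of the 9 nuclear genes, 4 of the 9 ndh genes, 27 of the 59 other chloroplast-encoded genes and 22.5% of all measured probe sets. The difference between nuclear and chloroplast-encoded genes was not tested.

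**Figure D4:**
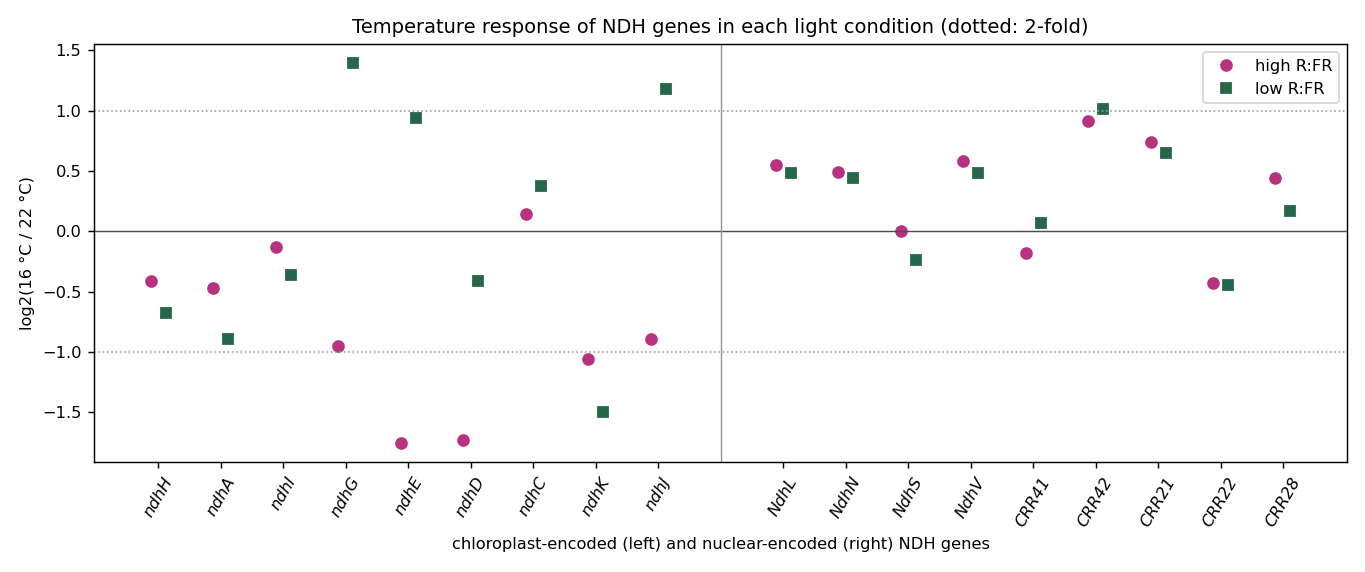
Log2 ratio of 16 to 22 °C (y axis) in high R:FR (circles) and low R:FR (squares) for 9 chloroplast-encoded and 9 nuclear-encoded NDH genes, with 2-fold dotted. The ndh points of ndhE, ndhG and ndhJ lie on opposite sides of 0 in the 2 lights, whereas the 2 points of NdhL, NdhN, NdhV, CRR21 and CRR42 lie close together above 0. Of the remaining nuclear genes, CRR28 lies above 0 and CRR22 below 0 in both lights. CRR41 and NdhS, near 0 in 1 light, lie on opposite sides of 0.

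The genes whose pattern over the 4 arrays was most like each unit were found by the Euclidean distance of mean-centred log2 signals from the mean profile of the unit. For the unit from ndhH to ndhD (6 measured ndh genes, 1068 candidates with a symbol) they were the chloroplast-encoded petG (distance 0.43), of the cytochrome b6f complex, ccb206 (0.45), a mitochondrion-encoded gene of cytochrome c assembly, and the chloroplast-encoded atpH (0.56), of the ATP synthase. For ndhC, ndhK and ndhJ (1069 candidates) they were ccsA (0.28), BIM1 (0.29), which encodes a transcription factor, and ccb206 (0.31). The ndh genes themselves lay 0.65 to 1.54 from the profile of the longer unit and 0.96 to 1.14 from that of the shorter one. The genes named above were picked as the nearest of all candidates, so their smaller distances follow from that choice. The ccb206 signals were dim, at 18.6 in high and 43.7 in low R:FR at 16 °C and at 23.0 and 47.4 at 22 °C, the lowest near the highest absent control. The profiles hold 4 values each, and ndhF had none because it was not measured.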

How the data were processed

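The deposited table holds the authors' linear intensity values for each array, and per the submitters' processing notes they came from MAS5. The sources used here give no version, target or detection calls of MAS5, nor the labelling primer. The deposited trimmed means were about 100.01 on each array, so the values had been scaled but not centred. From them each array was scaled to the same mean without the highest and lowest 2%, set to a floor at the 30th percentile (14.5), and logged. A probe set was called measured if its mean log2 reached the 40th percentile, equal to a signal of 23.2. The 64 control probe sets were left out. Symbols came from the platform annotation, updated by gene number through RefSeq's table, which also gave the gene order. Coordinates are not printed, because no build is stated for the values. limma 3.58.1 (lmFit, eBayes with a trend, Benjamini-Hochberg over 13648 probe sets) was tested on simulated data. All p-values cover only these 4 arrays.

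Named were the 10 ndh genes, psaC, direct neighbours of the units, nuclear genes past 2-fold for light or else the 2 nearest the list median, measured mitochondrial nad genes, and the 3 most like genes per unit. The members and lists were chosen with earlier results of these data known. Alternatives were other scalings, floors, a pseudocount, filters, fold thresholds and limma without a trend. Centring on chloroplast genes was added after seeing the data.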

Additional observations from a re-analysis of the deposited data

Results flagged for a closer look

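For 3 ndh genes the ratio of 16 to 22 °C had opposite signs in the 2 light conditions, and this difference was not tested. It was log2 -1.75 in high and 0.94 in low R:FR for ndhE, -0.95 and 1.40 for ndhG, and -0.89 and 1.18 for ndhJ. For ndhI the light ratio had opposite signs at the 2 temperatures, -0.0633 at 16 and 0.17 at 22 °C, both smaller than the SD of the spiked transcripts and not tested.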

How the results depend on the processing

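No paired analysis was possible because each condition has 1 array and the labels give no replicate numbers, and for the same reason no array could be left out. In place of replicates, the SD of the spiked transcripts was the limit for calling a median or single value moved. With no filter, which lets ndhF in, the ndh median was 1.20 for light at 16 °C, 0.63 for the difference of the light ratios, -0.68 for temperature in high R:FR and 0.0073, a reversed sign from -0.36, in low R:FR. Relative to other chloroplast genes these were 0.85, 0.58, -0.21 and 0.20 (reversed from -0.17). With the filter at the 60th percentile, which drops ndhH, the ndh median was 1.45 for light at 16 °C, 0.77 for the difference and 0.0073 (reversed) for temperature in low R:FR, and relative to other chloroplast genes 1.25, 0.73 and 0.23 (reversed). In high R:FR the temperature median was -0.47 once the floor was at the 50th percentile (-0.13 relative to other chloroplast genes) and -0.66 with a pseudocount. Of single ndh genes, 15 values moved. For light at 16 °C, ndhE was 2.60 and ndhG 2.98 with the floor at the 50th percentile, and ndhE 2.94, ndhG 3.01 and ndhJ 2.20 with a pseudocount. For the difference, ndhE was 1.58 and ndhG 1.70 with that floor, and 2.06 and 1.95 with a pseudocount. For temperature in high R:FR, ndhE was -0.63 and ndhG -0.31, and -1.20 and -0.66 with a pseudocount. In low R:FR, ndhI was -0.59 and ndhC 0.14 with quantile normalization. Counts of ndh genes past 2-fold for light at 22 °C were 2 with a pseudocount, 0 at 3-fold and 0 centred on other chloroplast genes, against 4. For temperature in high R:FR 5 were lower at 1.5-fold, against 3. In low R:FR 2 were lower with quantile normalization and 3 at 1.5-fold, against 1, and at 3-fold 0 were lower and 0 higher. The limma call of ndhK for temperature was lost, leaving 0, with a floor at the 10th percentile (adjusted p 0.0627), a floor at the 50th (0.2996), a pseudocount (0.0536), no filter (0.471) and no trend (0.147). Over all probe sets limma called 191 for temperature, and from 0 (a floor at the 50th percentile, no filter or no trend) to 315 (equal medians) over the alternatives. For light it called 7, and from 0 to 10. Scaling to equal medians moved the median of all probe sets from -0.05 to 0.12 for temperature in low R:FR and from -0.04 to 0.07 in high R:FR. The cause of the other moves was not tested. For counts the limit was a factor of 1.5, so a change from 4 to 3 or from 3 to 2 was not called moved. Such were the 3 genes higher for light at 22 °C with quantile normalization and the 2 lower for temperature in high R:FR with a pseudocount. Of the other values, 210 summary values and 495 values of single genes stayed within the limits.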

Other observations

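Of the mitochondrion-encoded nad genes, which encode subunits of the related respiratory complex I, 2 of 15 probe sets were measured. The nad4 signal was 24.9 in high and 9.0 in low R:FR at 16 °C, and 47.2 and 57.9 at 22 °C. A nad1 probe set was at 17.6 and 26.6 at 16 °C and at 42.7 and 42.6 at 22 °C. Both were lower on each array of 16 °C than on each of 22 °C, and both had signals near or below the floor. Among the probe sets that did not pass the filter, several, such as those of nad9 and nad4L, were also lower on each array of 16 °C. Another nad1 probe set outside the filter was higher on each array of 16 °C than on each of 22 °C. With 2 of 15 probe sets measured, these 2 do not stand for the nad genes as a set, and their direction was not tested. PGRL1B, of the other route of cyclic electron flow, was the 1 measured gene of 4 in its list, with signals of 80.1 and 100.4 at 16 °C and 112 and 173 at 22 °C.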
